A study of Homo sapiens with 4 samples.

Results

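The comparison described here is the MYCN siRNA (siMYCN) against a control siRNA (siCon) in BE(2)C:MYCN-ORF cells. It uses 4 of the 4 libraries of the series: siMYCN with a control miRNA mimic and siMYCN with a let-7a mimic, set against siCon with each of the same mimics. BE(2)C is a human neuroblastoma line with an amplified MYCN gene. Every library came from cells that, by the name of the line, also carry an introduced MYCN open reading frame, in the control groups as well as in the siMYCN groups. The promoter of that construct, whether it holds any untranslated sequence, and whether the line is 1 clone or a pool are details not given in the sources used here. PolyA RNA was taken 48 hours after transfection. Of 19734 gene rows, the 5672 with a mean of at least 20 over the 4 libraries were tested, and 14062 lay under that level. The mean spans both siRNA groups, so a gene low in 1 group could pass through the other alone. CDKN1A, CDH11, PSMG4, KAZALD1, PAM, KDM5B and GABARAPL1, reported below as higher, were under 20 in both siCon libraries. IGDCC3, CNTNAP2, CCSAP, METRN, SEMA3F, TGM2 and TET3, reported as lower, were under 20 in both siMYCN libraries. For such genes the filter is tied to the direction of change.

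Each group was 1 library, so no group had a replicate. The comparison was instead made once with the control mimic and once with let-7a, and these pairs share no library. Values are TPM-like, meaning that each library was scaled to nearly the same total, from 855811 to 862049. Levels below are given in that unit, with the control mimic library first and the let-7a library second. Fold changes are differences of log2(value + 1) and understate the change of low genes. A gene is said to have risen or fallen when limma, which moderates each gene's error with a trend over all genes, gave it a Benjamini-Hochberg adjusted p under 0.05 over both pairs. The single residual degree of freedom of that fit is the disagreement between the pairs, and the p-values measure only the spread among these 4 libraries, which may be technical.

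MYCN encodes a basic helix-loop-helix transcription factor of the MYC family. It binds DNA as a dimer with MAX, and the MXD proteins compete for the same partner. In neuroblastoma, a tumour of the sympathetic nervous system of childhood, MYCN amplification marks high-risk disease. MYC proteins are known to drive genes of ribosome assembly, nucleotide synthesis and the cell cycle and to repress others, CDKN1A and DKK1 among them. An siRNA cuts the transcript that it matches in full, and it can also lower transcripts whose 3′ untranslated region (3′ UTR) matches only its seed, in the way a miRNA does.

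The 3′ UTR of MYCN itself and those of many genes that were lower with siMYCN held the word GTGAAAG. The word came from an earlier reading of these same libraries, so its link with lower genes is a description and no independent evidence. The sequence of the siRNA is not given in the sources used here, and whether its seed pairs with this word was not tested. The sites below are shown because they lie in MYCN and in 7 of the 15 genes with the largest shared fall. Each is 30 bases of the transcript strand from GRCh38, within the longest 3′ UTR of the gene in GENCODE release 29, with the word in capitals.
MYCN, chr2:15946741-15946770, plus strand: tgaaaatgagttGTGAAAGttttgagtaga
IGDCC3, chr15:65328258-65328287, minus strand: ccgtttccaggtGTGAAAGaaaaaaaaaag
HACD3, chr15:65578296-65578325, plus strand: ctgtctgagaaaGTGAAAGattgtgtattt
VMA21, chrX:151406891-151406920, plus strand: ctgttgagaaaaGTGAAAGatcagtatgat
MDM2, chr12:68840471-68840500, plus strand: aagagaaaatgtGTGAAAGatttagttttt
STOM, chr9:121341046-121341075, minus strand: ttataaaaatagGTGAAAGaattgttagct
CNTNAP2, chr7:148419980-148420009, plus strand: caacggagcctaGTGAAAGacttactttgt
CCSAP, chr1:229324752-229324781, minus strand: gccgttttgtttGTGAAAGaatatcaagtc
IGDCC3 held the word 3 times, of which 1 site is shown, and each of the other genes held it once. In each of the printed sites apart from that of MYCN the word is followed by an A.

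The targeted gene was only slightly lower. MYCN was at 1448.5 and 1432.8 in the siCon libraries and at 1238.3 and 1197.2 in the siMYCN libraries. Both siMYCN libraries lay below both siCon libraries, at -14.5% in the control mimic pair and -16.4% in the let-7a pair. MYCN fell by a log2 fold change of -0.24 ± 0.047 (SE of the limma fit, n = 4 libraries; limma adjusted p = 0.0441). The call is near the threshold: the adjusted p was 0.0584 when genes with a mean of at least 5 were tested, 0.0514 without a term for the mimic, 0.166 without a variance trend and 0.21 with no filter. RefSeq places MYCN on chromosome 2 of GRCh38, from 15940550 to 15947004. Its value can add transcripts of the cells' own gene to those of the introduced reading frame, and the deposited values do not separate them.

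Of the 23 genes of the MYC-MAX network, 14 were tested, 1 rose and 2 fell, MYCN itself being 1 of the 2. Over all tested genes 5.47% were called higher and 3.46% lower. The median over the tested members was -0.022, beside 0.050 over all tested genes, and it was 0.015 when genes with the word GTGAAAG were left out. MXD4, which competes with MYC proteins for MAX, was at 34.4 and 42.3 with siCon and at 48.6 and 58.6 with siMYCN. It rose by 0.49 and 0.46 (limma adjusted p = 0.0466). MLX, a MAX-like partner of glucose-sensing factors, fell from 44.2 and 42.0 to 30.2 and 25.75 (limma adjusted p = 0.0404). MAX itself was at 23.8 and 23.3 with siCon and 26.3 and 27.15 with siMYCN and did not pass (limma adjusted p = 0.388). AURKA, a kinase that stabilises the MYCN protein, had log2 fold changes of -0.39 and -0.91 and did not pass (limma adjusted p = 0.0742). MYC was at 0.221 or less in every library. DDX1, a neighbour of MYCN that is often amplified with it, had -0.028 and 0.063.

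Over all tested genes, siMYCN raised 310 and lowered 196, together 506 or 8.92% of 5672. The share called higher was 5.47% and the share called lower 3.46%, and these are the background for list counts not given after rescaling. Counts given after rescaling the libraries have a larger background, 609 higher and 626 lower of the 5672. At an unadjusted p under 0.05 there were 1106 higher and 620 lower, 30.4% of those tested. All 506 called genes had the same sign in both pairs, and in 505 of them both siMYCN libraries lay outside the range of the siCon libraries. Over all tested genes 73.1% had the same sign in both pairs and 59.2% were separated in this way. How the 73.1% divided between above and below 0 was not counted. The call favours genes whose pairs agree, so the counts among called genes follow from it and are no independent check. A second rule, which is no test, asked for a 1.5-fold change or more in the same direction in each pair. It held for 105 higher and 74 lower genes (1.85% and 1.3%, together 3.16%). Of these, 103 and 74 were also called. At 2-fold it held for 12 higher and 13 lower genes. Of the 506 called genes, 242 were under 1.5-fold over both pairs, and the median called gene had a log2 fold change of 0.57 when higher and -0.62 when lower. Rescaling the libraries by median ratios turned the split round, with 609 higher and 626 lower, so that 49.3% of calls were higher instead of 61.3%. The 1.5-fold rule then held for 74 higher and 102 lower genes, so its split turned round as well. With no filter on low values limma called 0 genes in either direction (1761 higher and 1030 lower at an unadjusted p under 0.05), and without the variance trend also 0 (1056 and 597).

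**Figure D1:**
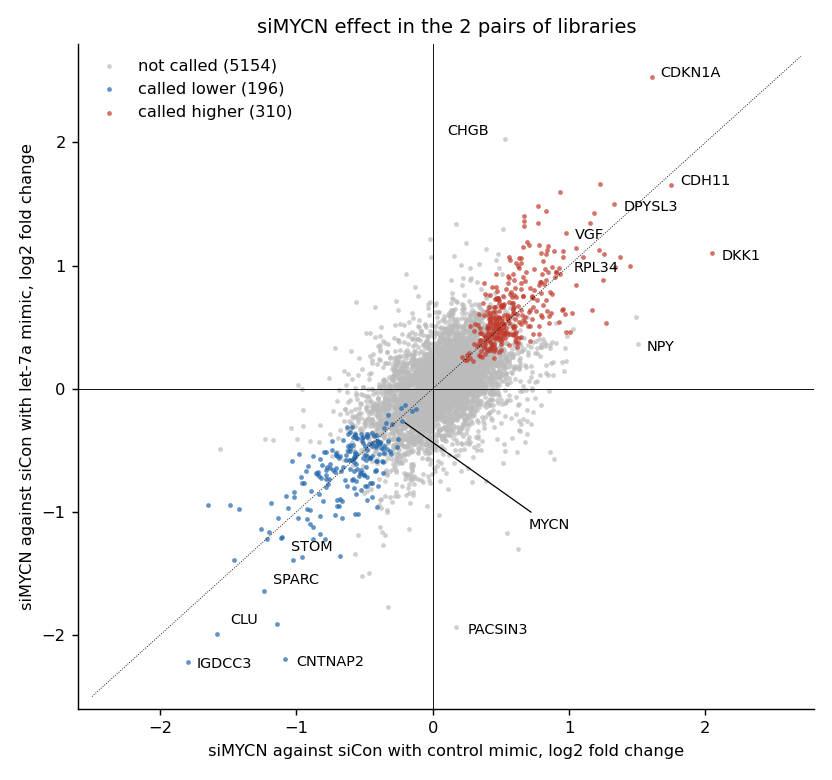
Log2 fold change of siMYCN against siCon for each tested gene, with the control mimic on the horizontal axis and with let-7a on the vertical axis. Red and blue points are the genes called higher (310) and lower (196) over both pairs, grey points those not called, and the dotted line marks equal effects. IGDCC3 and CNTNAP2 lie far down in both pairs, CDKN1A and CDH11 far up, while CHGB and PACSIN3 lie far from the line.

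The pairs resembled each other across genes, with Pearson's r at 0.65 and Spearman's rho at 0.61 over 5672 genes, which are not independent replicates and share their library totals. Mitochondrially encoded transcripts accounted for 31.65% and 32.1% of each siCon total and 28.4% and 29.3% of each siMYCN total. The remainder left for all other genes was therefore larger by a log2 ratio of 0.067 in the control mimic pair and 0.058 in the let-7a pair, beside median fold changes over all tested genes of 0.066 and 0.040. The part of this shift in the split between higher and lower calls was not tested beyond the rescaling above. Between 14786 and 15290 genes were above 0 in each library, and read depth is unknown.

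The word GTGAAAG was present in the 3′ UTR of 799 of the 5433 tested genes with an annotated 3′ UTR, or 14.7%. Among genes that fell it was present in 61 of 182 (33.5%), and among genes that rose in 28 of 294 (9.52%). With the 1.5-fold rule the shares were 28 of 71 lower genes (39.4%) and 8 of 102 higher genes (7.84%). Only the transcript strand was searched, with overlapping matches counted.

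The word was chosen from these same libraries, so its shares among lower genes, here and by 3′ UTR length below, are descriptive only. The share of genes called lower was larger with more words. It was 2.61% of 4634 genes without the word, 6.87% of 655 genes with 1 word and 11.1% of 144 genes with 2 or more. Genes in which an A followed the word at least once were called lower in 12.3% of 253 cases, against 5.49% of 546 genes that held the word but never with an A after it. In the control mimic pair the median fold change was 0.078 without the word and -0.013 with it. In the let-7a pair these medians were 0.041 and 0.034, so the shift of the whole group was smaller there.

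Longer 3′ UTRs hold more words by length alone: the median 3′ UTR had 1240 bases in genes without the word and 3134 in genes with it. Within each of 4 equal bins of 3′ UTR length, the share called lower was higher in genes with the word. It was 11.5% against 3.3% in the shortest bin, where only 26 genes held the word (3 of them called lower), then 9.01% against 3.13%, 10.2% against 2.03% and, in the longest bin, 5.73% against 1.63%. In the shortest bin the other measures went the other way: by the 1.5-fold rule 0% of genes with the word were lower against 1.12% without it, and 7.69% were called higher against 5.47%. Without the genes that hold the word, an alternative added with the data in view, limma called 138 higher and 67 lower genes among 4873, and all of these were also called among the full set. In the fit of the full set, 266 genes called higher and 121 called lower had a 3′ UTR without the word. Many of the lost calls were therefore in genes that stayed in the test. The 1.5-fold rule then gave 97 higher and 46 lower genes.

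**Figure D2:**
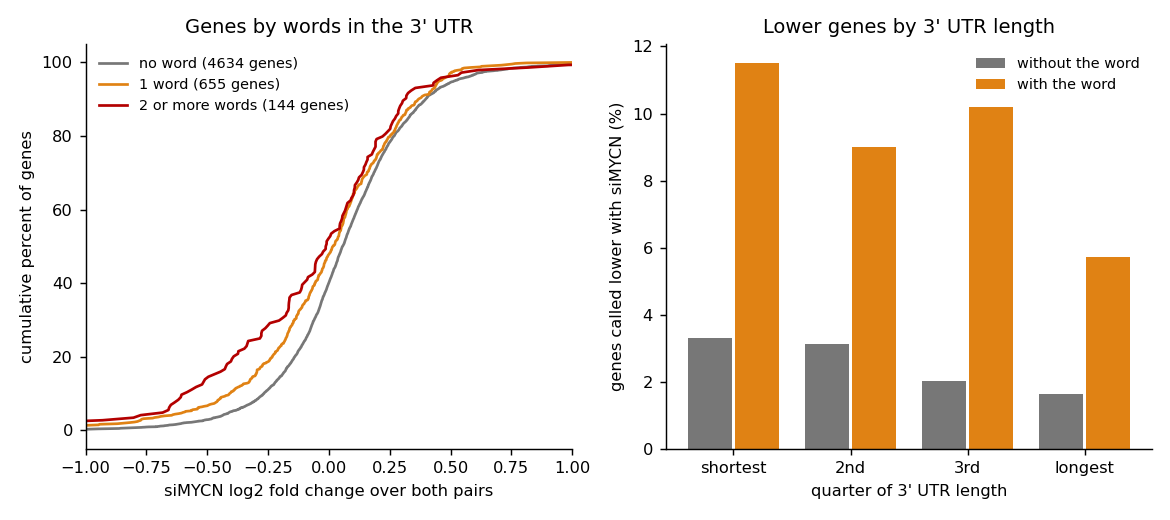
Left: cumulative percent of genes by siMYCN log2 fold change over both pairs (axis limited to -1 to 1), for genes with no word, 1 word, and 2 or more words in the 3′ UTR. Right: percent of genes called lower in each of 4 bins of 3′ UTR length, with and without the word (bars start at 0). On the side of the lower genes the curve for 2 or more words lies above that for no word, and the bars with the word are taller in each bin (5.73% to 11.5% against 1.63% to 3.3%).

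The largest shared falls included genes of neural development, adhesion and membranes. IGDCC3, an immunoglobulin-superfamily membrane protein related to the DCC receptors, was at 71.2 and 38.9 with siCon and at 19.8 and 7.54 with siMYCN. It fell by -1.80 and -2.22, or -2.01 ± 0.15 over both pairs (SE, n = 4 libraries; limma adjusted p = 0.0152). Both siMYCN libraries lay below both siCon libraries, and within each siRNA the let-7a library was the lower.

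SPARC, a secreted protein that binds collagen, fell from 313 and 259 to 132 and 82.2, and no copy of the word was found in its 3′ UTR. The groups did not overlap, as for IGDCC3 and for 59.2% of all tested genes. Ranking by the smaller change of the pairs favours such genes.

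CNTNAP2, a neurexin-like adhesion protein of axons, was at 32.15 and 33.1 with siCon and at 14.6 and 6.44 with siMYCN, so its fall was larger with let-7a (-1.08 and -2.20; limma adjusted p = 0.0387). CLU, a secreted chaperone, was likewise at 59.98 and 71.0 against 26.6 and 18.1 (-1.14 and -1.92).

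Other falls were nearly equal in the pairs. MDM2, the ubiquitin ligase that degrades p53, went from 47.8 and 44.5 to 21.6 and 18.7. HACD3, a dehydratase of very long chain fatty acid synthesis, went from 116 and 109 to 49.4 and 46.0. VMA21, an assembly factor of the vacuolar proton pump, went from 75.6 and 75.3 to 32.2 and 33.0. STOM, a membrane protein of lipid rafts, was the most abundant of these, at 349 and 333 with siCon and at 162 and 144 with siMYCN. In these 4 genes, and in CCSAP, a protein of centrioles and the spindle (39.2 and 37.1 against 17.3 and 17.4), the pairs' fold changes differed by 0.098 or less on the log2 scale, and each holds the word once as printed above. TMEM245 (-1.46 and -1.39), LCN1, METRN, TTC9B and TMEM64 were also among the 15. Of the 15, 8 held the word, TMEM64 with 2 copies among them. The 15 were picked by their size in these same libraries, so their adjusted p-values (0.0138 to 0.0387 by limma) add no support.

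Among the largest shared rises were a cell cycle inhibitor, a cadherin and secreted proteins. CDKN1A, which encodes the CDK inhibitor p21, was at 9.55 and 10.1 with siCon and at 31.1 and 63.1 with siMYCN. It rose by 1.61 and 2.53, or 2.07 ± 0.25 over both pairs (SE, n = 4 libraries; limma adjusted p = 0.0234), and the siMYCN library with let-7a was the highest of the 4. CDH11, a type II cadherin of mesenchymal and neural crest cells, went from 8.03 and 9.98 to 29.4 and 33.6 (1.75 and 1.66; limma adjusted p = 0.0187). CDKN1A and CDH11 were each under 20 in both siCon libraries and passed the filter only through their siMYCN libraries. CDH11 was the only one of the 14 top higher genes with an annotated 3′ UTR that held the word, with 2 copies.

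DPYSL3, a cytoskeletal protein of growing neurites, went from 97.2 and 101 to 246 and 287 (1.33 and 1.504; limma adjusted p = 0.0138). CALU, a calcium-binding protein of the secretory pathway, went from 137 and 131 to 307 and 333. VGF, a neuropeptide precursor, went from 179 and 181 to 353 and 437. In these 3 genes both siMYCN libraries lay above both siCon libraries. Over all tested genes 59.2% were separated in one direction or the other, and ranking by the smaller change of the pairs favours such genes.

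DKK1, a secreted WNT inhibitor, rose more with the control mimic than with let-7a, from 50.85 and 53.9 to 214 and 117 (2.05 and 1.10; limma adjusted p = 0.0289). H3F3A, a histone H3.3 gene that shares sequence with several processed pseudogenes, went from 525 and 568 to 1088 and 1256.5 (1.05 and 1.14). CCDC59, FAM30A, C12orf57, PSMG4, RTL1, EGFL7, SLCO4A1 and KAZALD1 completed the 15, with fold changes over both pairs between 1.09 and 1.45. PSMG4 is a proteasome assembly chaperone and SLCO4A1 an organic anion transporter.

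**Figure D3:**
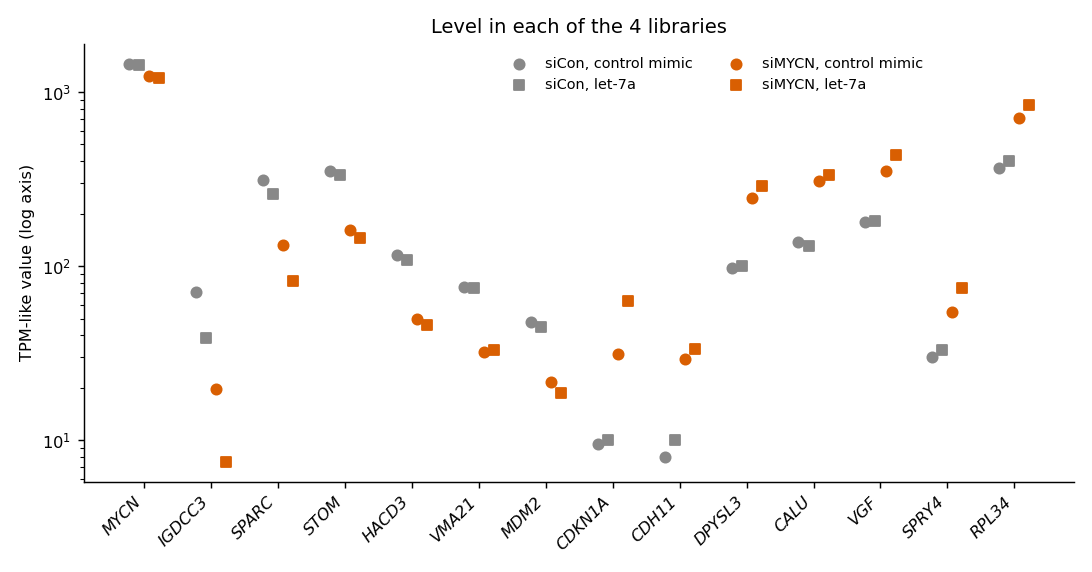
TPM-like value of 14 genes in each of the 4 libraries on a log axis; grey marks siCon, orange siMYCN, circles the control mimic and squares let-7a, and each point is 1 library. MYCN moves little (1448.5 and 1432.8 to 1238.3 and 1197.2), whereas both orange points lie clear of both grey points for genes such as STOM, CDH11 and DPYSL3.

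Among genes of the cell cycle, some G1 regulators rose. Of 26 G1 cyclins, kinases and inhibitors, 17 were tested, 4 rose and 1 fell. Their median was 0.068, beside 0.050 over all tested genes, with 8 above 0 in both pairs and 4 below in both. After rescaling the median was 0.016, with 5 called higher and 2 lower. That fit called 609 higher and 626 lower of all 5672 tested genes. Besides CDKN1A, the genes that rose were CCNE1, the cyclin of S phase entry (22.1 and 24.5 to 34.5 and 37.8), E2F3, a transcription factor of S phase genes (51.5 and 50.7 to 68.3 and 71.6), and CCND1, the cyclin of mid G1 (426 and 398 to 555 and 532; limma adjusted p = 0.0289). CDK6, a kinase partner of CCND1, fell from 153 and 143 to 116 and 104. The higher set thus held an inhibitor of CDKs and 2 cyclins together.

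DNA replication genes lay mostly below 0. Of 45 tested, 30 were lower in both pairs and 6 higher in both, with a median of -0.20 beside 0.050 over all genes, but only 3 fell and 1 rose. The 3 were MCM6, a helicase subunit (93.4 and 88.0 to 68.4 and 59.9), POLE, the leading strand polymerase (62.5 and 58.8 to 44.1 and 42.3), and RPA3, which coats single-stranded DNA (105 and 104 to 74.95 and 70.85). GINS3, another helicase subunit, rose from 26.3 and 23.8 to 39.9 and 40.6. The median was -0.11 in the control mimic pair and -0.26 in the let-7a pair. After rescaling, 15 members were called lower and 1 higher, in a fit that called 626 lower and 609 higher of 5672 genes.

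Of 40 tested G2 and mitosis genes, HMMR, a spindle and hyaluronan-binding protein, and ANLN, a scaffold of the cleavage furrow, fell and none rose. HMMR was at 33.6 and 32.65 with siCon and at 22.2 and 18.25 with siMYCN. The median of the list was -0.054. Of 9 tested p53 targets, CDKN1A rose, while MDM2 and TP53I3, an oxidoreductase, fell. TP53I3 was at 76.3 and 67.0 with siCon and 36.8 and 44.3 with siMYCN. MCL1, an anti-apoptotic BCL2 relative, rose from 93.15 and 99.3 to 137.5 and 163 (limma adjusted p = 0.0252) and was the only 1 of 13 tested BCL2 family and caspase genes called.

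ERK feedback genes, which respond to signalling by the ERK kinases and some of which damp it, were mostly above 0. Over all tested genes 58.6% had a fold change above 0. Of 25 listed, 11 were tested and 14 lay under a mean of 20, DUSP6 among them. Of the 11, 10 were above 0 in both pairs, 3 rose and 0 fell, with a median of 0.40. SPRY4, a feedback inhibitor of receptor tyrosine kinases, was at 30.05 and 32.8 with siCon and at 54.8 and 74.45 with siMYCN (0.85 and 1.16; limma adjusted p = 0.0231). DUSP4, a nuclear phosphatase of ERK, went from 26.9 and 29.1 to 45.7 and 51.5 (limma adjusted p = 0.0254). CCND1, also counted among the G1 genes above, was the third. ETV5, SPRED2 and PHLDA1 had fold changes over both pairs between 0.39 and 0.45 and did not pass (limma adjusted p = 0.0543 to 0.0563). After rescaling, 7 of the 11 were called higher, in a fit that called 609 of 5672 genes higher. Of 9 tested immediate early genes, only ID1, an inhibitor of basic helix-loop-helix factors, rose (36.1 and 40.1 to 48.5 and 64.15). None of 7 tested genes of the list of neurotrophin receptors, receptor tyrosine kinases and related receptors was called (0; at an unadjusted p under 0.05, 1 was higher, the sorting receptor IGF2R, and 2 lower).

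Cytosolic ribosomal proteins had the most calls of any list. Of 78, 74 were tested, 32 rose and 0 fell, a share of 43.2% beside the 5.47% of all tested genes. The median was 0.24, and 57 were above 0 in both pairs and 4 below in both. By the 1.5-fold rule 4 of the 74 were higher and 0 lower, beside 1.85% higher over all tested genes. Some called changes were small, such as that of RPS6 at 0.24 over both pairs. Without the variance trend 0 members were called. The share over all tested genes was not matched for level. RPL34 was at 365 and 402 with siCon and at 709 and 842 with siMYCN (0.95 and 1.07; limma adjusted p = 0.0138). RPL38 went from 1450 and 1665 to 2095 and 2284, and RPL37 from 289 and 327 to 436 and 531.

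Proteins of the large subunit made up most of these calls: 26 of 44 tested rose, with a median of 0.33, against 6 of 30 of the small subunit, with a median of 0.19. The difference between the subunits was not tested. RPS4X (1210 and 1268 to 1646.5 and 1803.5) and RPS10 (418 and 394 to 602 and 598.5) were among the 6. Ribosomal protein genes have many near-identical pseudogenes, and how reads were divided among the copies is not given in the sources used here, so single values such as that of RPL21 are uncertain. RPL8 went opposite ways in the pairs, at 38.1 and 60.7 with siCon and at 59.2 and 24.1 with siMYCN. After rescaling the median of the list was 0.19, with 34 called higher and 1 lower, beside 609 and 626 of all 5672 tested genes. When genes with the word were left out, 19 of 65 remaining members were called higher, with a median of 0.23.

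**Figure D4:**
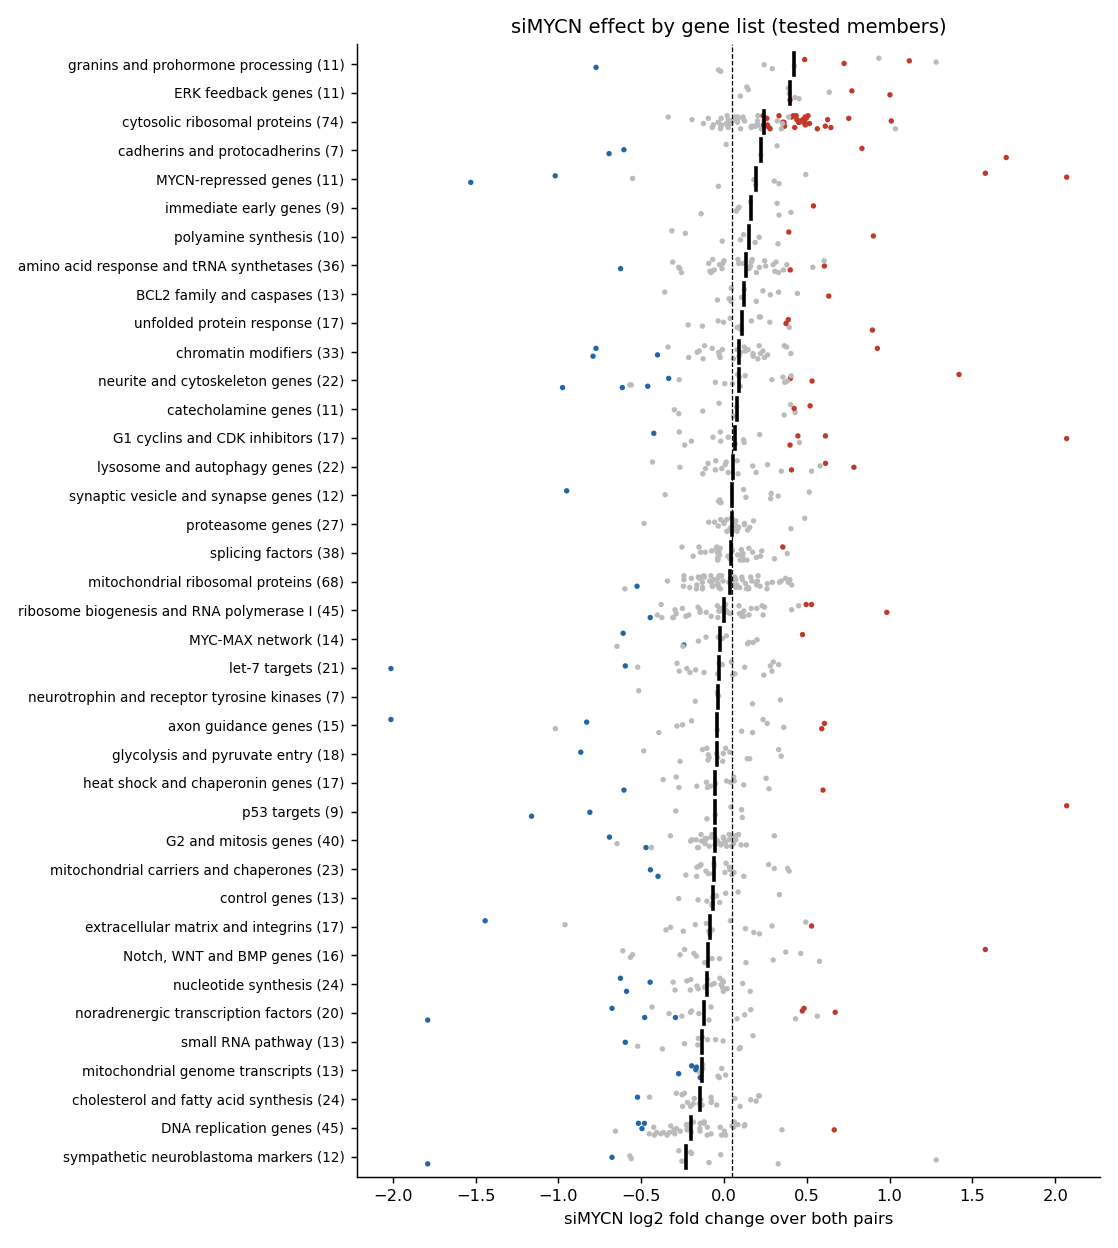
Log2 fold change over both pairs of the tested members of each gene list with at least 7 of them (number in brackets); red points rose, blue points fell, grey points were not called. Black bars are the list medians and the dashed line is the median over all tested genes (0.050). Ribosomal proteins, ERK feedback genes and granins lie to the right, DNA replication genes and mitochondrial transcripts to the left.

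Other lists of growth genes held few calls. Of 45 tested ribosome biogenesis and RNA polymerase I genes, 3 rose and 1 fell, with a median of -0.00029. After rescaling 5 were called higher and 7 lower, beside 609 and 626 of all 5672 tested genes. GRWD1, a histone-binding ribosome assembly factor, was at 26.1 and 24.4 with siCon and at 47.6 and 54.4 with siMYCN (0.84 and 1.12; limma adjusted p = 0.0236). DDX10 and RRS1, which act in assembly of the subunits, rose by 0.53 and 0.50 over both pairs. NOLC1, a nucleolar scaffold, fell from 132 and 122 to 98.2 and 87.6. Of 68 tested mitochondrial ribosomal proteins, only MRPL24 was called, and it fell (123 and 143.5 to 95.65 and 88.8).

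Nucleotide synthesis genes that were called all fell, 3 of 24 tested, with 12 below 0 in both pairs and 2 above. CAD, which starts pyrimidine synthesis, was at 100.5 and 91.4 with siCon and at 61.4 and 62.1 with siMYCN (-0.70 and -0.55; limma adjusted p = 0.0289). IMPDH2, the rate-limiting enzyme of guanine nucleotide synthesis, went from 199 and 190.5 to 131 and 127 (limma adjusted p = 0.0234), and ADSS, of adenine nucleotide synthesis, from 121 and 109 to 83.8 and 83.9. ODC1, the first enzyme of polyamine synthesis and an established MYC target, rose from 243 and 239 to 295 and 340, together with OAZ1, which promotes its degradation (32.8 and 46.7 to 80.6 and 67.8). PFKP, a glycolytic phosphofructokinase, fell from 211 and 198 to 108 and 116 (limma adjusted p = 0.0187) and was the only 1 of 18 tested glycolysis genes called.

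Of 13 transcripts of the mitochondrial genome, 5 fell, 0 rose and 11 were lower in both pairs, with a median of -0.14. MT-CO1, a subunit of cytochrome oxidase, was at 38872 and 39241 with siCon and at 30925 and 33747 with siMYCN. MT-ND1, MT-CO3, MT-ND4 and MT-ATP6 were the others, with fold changes over both pairs between -0.20 and -0.14. Among 23 tested mitochondrial carriers and chaperones, SLC25A3, the phosphate carrier, and SLC25A11, the oxoglutarate carrier, fell by -0.40 and -0.44 over both pairs.

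Of 36 tested amino acid response and tRNA synthetase genes, DDIT4, a stress-induced inhibitor of mTOR (92.5 and 114 to 140.5 and 175), and CEBPG rose and YARS, the tyrosyl-tRNA synthetase, fell (153.5 and 130 to 93.5 and 89.15). In the unfolded protein list 3 of 17 rose and 0 fell: PDIA4, a disulfide isomerase (108 and 107.5 to 191 and 212), MANF, a secreted stress factor, and HSP90B1, the chaperone of the endoplasmic reticulum (719 and 680.5 to 939 and 876). HSP90AA1, its cytosolic relative, rose from 782 and 679 to 1120 and 1088, while BAG3, a co-chaperone, fell from 89.65 and 83.6 to 62.9 and 51.0. GABARAPL1, GLA and LAMP1, genes of autophagy and lysosomes, rose by 0.78, 0.61 and 0.41 over both pairs, 3 of 22 tested. Cholesterol and fatty acid synthesis genes had a median of -0.145, with 16 of 24 below 0 in both pairs and 1 called, STARD4, a sterol carrier, which fell (114 and 104 to 75.6 and 75.6).

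Transcription factors of the noradrenergic, sympathetic state went both ways. Of 29, 20 were tested, 3 rose and 4 fell, with a median of -0.12. Those that fell included ISL1, a LIM-homeodomain factor (127.5 and 116 to 88.3 and 65.1; limma adjusted p = 0.0322), TBX2, a T-box factor (143 and 149 to 111 and 98.4), and INSM2, a zinc finger factor (346 and 356 to 282 and 291). SOX4, a factor of young neurons, rose from 96.4 and 107 to 144 and 183, TFAP2B, a factor of sympathetic differentiation, from 81.4 and 89.5 to 109 and 131, and GATA2 from 406 and 446 to 513 and 679.

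PHOX2A, HAND2 and GATA3, also of this set, did not pass. In bulk RNA a lower value can come from fewer cells of a type or from less RNA per cell, and these cannot be told apart here. Among 11 tested catecholamine genes, QDPR, which regenerates the cofactor of tyrosine hydroxylase, and CYB561, an electron carrier of the granule membrane, rose by 0.52 and 0.42 over both pairs, and 0 fell.

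Granins and prohormone processing genes, which fill and mature secretory granules, had a median of 0.42 over 11 tested members, of which 3 rose and 1 fell. Apart from VGF, the genes that rose were SCG2, a granin (717 and 717 to 930 and 1086; limma adjusted p = 0.0298), and PAM, which amidates peptides (18.1 and 18.7 to 28.8 and 33.5). GAL, the neuropeptide galanin, fell from 120 and 141 to 66.7 and 86.1 (limma adjusted p = 0.0207). CHGB, another granin, was at 438 and 557 with siCon and at 633 and 2275 with siMYCN, so that the library with siMYCN and let-7a stood far above the others. NPY, neuropeptide Y, was high in the other siMYCN library instead, at 398 and 399 against 1132 and 514. Neither passed (limma adjusted p = 0.0731 and 0.0823).

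**Figure D5:**
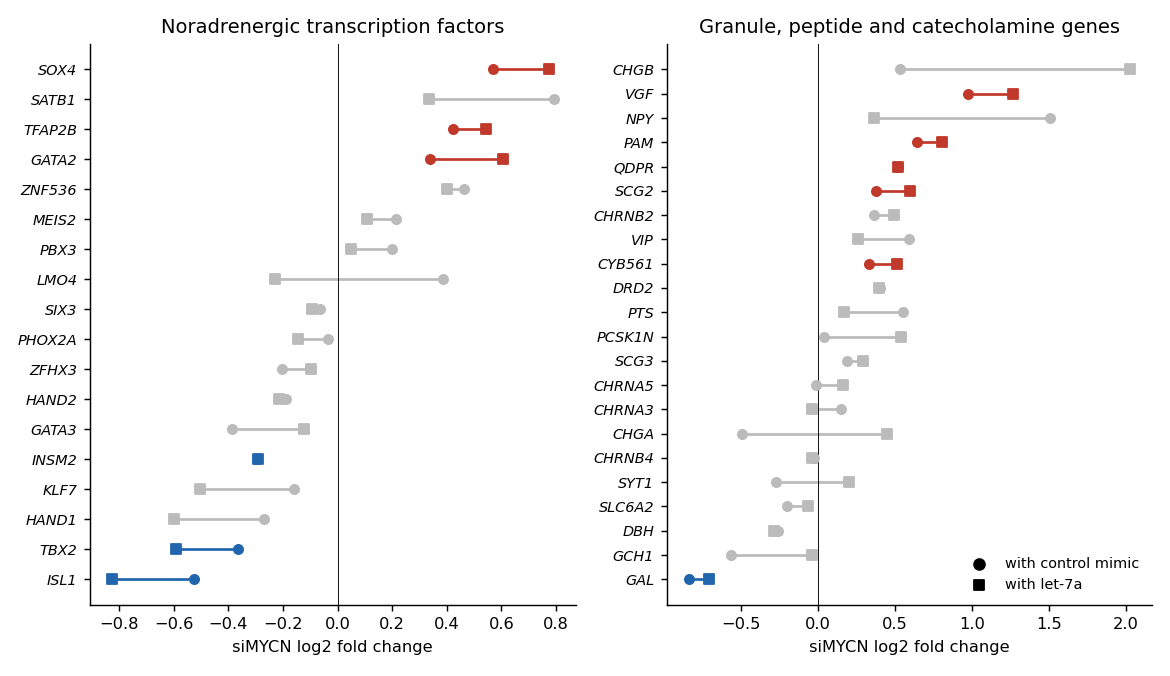
Log2 fold change of siMYCN with the control mimic (circles) and with let-7a (squares), joined for each gene; left, 18 of the 20 tested noradrenergic transcription factors, right, granule, peptide and catecholamine genes. Red genes rose, blue genes fell and grey genes were not called; on the left ISL1 lies at -0.53 and -0.83 and SOX4 at 0.57 and 0.77, and CHGB has the longest line, from 0.53 to 2.03.

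Neurite and synapse genes were also divided. Of 22 tested neurite and cytoskeleton genes, 3 rose and 4 fell. DPYSL3, its relative CRMP1 (118 and 117 to 150 and 160) and the neuronal tubulin TUBA1A (215 and 224 to 277 and 364) rose. The neurofilaments NEFH (43.6 and 42.7 to 20.1 and 22.9; limma adjusted p = 0.0238) and NEFL, the growth cone protein BASP1 (221 and 200 to 160 and 117.5) and the microtubule protein MAP1B (223 and 192 to 155 and 145) fell. SYN2, a protein that tethers synaptic vesicles, fell from 50.04 and 51.5 to 25.96 and 25.6 and was the only 1 of 12 tested synapse genes called.

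UNC5A and UNC5B, netrin receptors, rose by 0.61 and 0.59 over both pairs, and SEMA3F, a secreted semaphorin, fell by -0.83, so that with IGDCC3 the axon guidance list had 2 higher and 2 lower of 15 tested. CDH2, the neural cadherin, rose from 107.5 and 112 to 169 and 228, whereas CDH24 (127 and 118.5 to 76.1 and 74.8) and PCDH1 fell, among 7 tested cadherins. In the extracellular matrix list TIMP1, an inhibitor of matrix proteases, rose from 67.2 and 71.6 to 93.3 and 108, and SPARC fell, of 17 tested.

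Among chromatin modifiers KDM5B, a histone demethylase, rose from 13.6 and 17.6 to 26.3 and 34.9 (limma adjusted p = 0.0305), and HDAC9, TET3 and HDAC1 fell, of 33 tested. HDAC9, a histone deacetylase, was at 39.9 and 36.5 with siCon and at 22.8 and 20.5 with siMYCN. Among 4 tested interferon genes, IFI6 fell from 44.1 and 47.7 to 24.25 and 25.9. SNRPD1 was the only 1 of 38 tested splicing genes called, and it rose by 0.36 over both pairs. None of 27 proteasome genes was called (0; at an unadjusted p under 0.05, 2 were higher and 0 lower), nor any of 13 control genes (0; 1 higher and 1 lower at an unadjusted p under 0.05), among them GAPDH at 244 and 238 with siCon and 230 and 218.5 with siMYCN.

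Among 21 tested let-7 targets, IGDCC3 and LIN28B fell and 0 rose. LIN28B, which binds let-7 precursors and keeps them from maturing, was at 157 and 96.5 with siCon and at 118.5 and 55.5 with siMYCN (-0.40 and -0.79; limma adjusted p = 0.0441). It was lower with siMYCN under each mimic, and lower with let-7a under each siRNA. The siCon library with let-7a lay below the siMYCN library with the control mimic, so the siRNA groups overlapped. In the list of genes that MYCN is known to repress, 11 were tested, CDKN1A and DKK1 rose, and CLU and TGM2, a transglutaminase, fell. TGM2 was at 32.1 and 28.4 with siCon and at 19.7 and 10.4 with siMYCN.

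Markers of the labelled cell type were present: all 14 sympathetic neuroblastoma markers were above 1 in every library. Of the 12 tested, 2 fell, ISL1 among them, and 0 rose. Their median was -0.23, beside 0.050 over all tested genes, with 9 below 0 in both pairs and 2 above in both. After rescaling 7 were called lower and 2 higher, beside 626 and 609 of all 5672 tested genes. The summed level of the 14 was 3241 and 3639 with siCon and 2847 and 5351 with siMYCN, the last including 2275 from CHGB. Of 18 mesenchymal-type and Schwann-like markers, 10 were above 1 in every library and 5, PRRX1, FN1, NOTCH2 and FOXD3 among them, were under 1 in all, with sums of 449, 463, 585 and 484 in the same order. Of 10 fibroblast markers, 7 were above 1, with COL1A2, FAP and POSTN under 1 and sums of 426, 403, 448 and 386. Epithelial markers summed to between 11.6 and 18.8 and blood markers to between 8.48 and 10.0, with 6 and 7 of 10 under 1 in every library. None of the mesenchymal-type or fibroblast markers tested (2 and 5) was called (0; at an unadjusted p under 0.05, 1 in each was higher), and the part of other cell states in the changes above was not tested.

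Effects of at least 2-fold different size in the pairs were seen in 29 genes (0.511% of those tested), 10 more positive and 19 more negative with let-7a, and this has no test of its own. The 5 largest differences upward were in CHGB, FRMD6, C7, ZNF428 and KRTCAP2. ZNF428, a zinc finger gene, was at 24.2 and 22.5 with siCon and at 27.4 and 58.6 with siMYCN. Downward they were in PACSIN3, RPL8, IST1, CALML4 and SLC18A3. SLC18A3, the vesicular acetylcholine transporter, was at 40.6 and 42.05 with siCon and at 32.1 and 11.6 with siMYCN. In CHGB, C7, ZNF428, PACSIN3 and SLC18A3 the library with siMYCN and let-7a stood apart from the other 3. None of the 10 was called by limma over both pairs (0; adjusted p = 0.0731 to 0.895). They were picked by the disagreement between the pairs, which is the residual of that fit. The lack of calls thus follows largely from the choice and is no result about these genes.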

How the data were processed

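PolyA RNA of 4 libraries was compared, with groups taken from the sample labels. The authors deposited 1 table of 19837 rows, read here as natural log values. With that base, exp(x) - 1 adds up to 855811 to 862049 in a library, nearly the same in each, whereas base 2 gives 143211 to 147588. Per the submitters' processing notes, the tools were HISAT 0.1.6 and Salmon 0.3.2 and the genome build was GRCh38, in roles that the notes do not state. The sources used here do not say whether the libraries came from separate cultures. TPM-like values hold no read depth, and counting error is therefore unknown.

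Vector rows (11) and spike-in rows (92) were set apart. Another 28 rows, 12 of them tested, carry gene names turned into calendar dates, and these stayed in the fit unnamed. limma 3.58.1 in R 4.3.3 fitted log2(value + 1), with a pseudocount of 1, on rows with a mean of at least 20. siRNA and mimic were additive terms with a variance trend (4.2 prior degrees of freedom beside 1 residual). The fit was tested on simulated data. Alternatives changed the pseudocount, filter, scaling, variance model, mimic term and fold size. Python 3.11.15, pandas 2.3.3 and NumPy 2.4.6 made the counts and tables.

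The comparison, the gene lists, the word GTGAAAG and the alternatives were chosen with earlier results of these data known, so they are not independent evidence. The rule for naming genes took, in each direction, 15 called genes ranked by the smaller absolute change of the pairs. Each list added its called members and up to 6 members with the largest changes, and the MYC-MAX network, the MYCN neighbours and the 5 largest differences between pairs in each direction were included. Not all genes that the rule names are described, and some are not reported here. 3′ UTRs came from GENCODE release 29 (the longest per gene, for 5433 of 5660 named rows, 96.0%) and gene coordinates from RefSeq. A check of the E-box, the MYC-MAX site, in promoters is void, because only 4432 of 5660 rows (78.3%) matched a promoter.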

Additional observations from a re-analysis of the deposited data

Results flagged for a closer look

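In the results below, the siMYCN effect had opposite signs in the pair with the control mimic and in the pair with let-7a, and the difference was not tested. The values are log2 fold changes, first of the control mimic pair and then of the let-7a pair, followed by the second minus the first. For 4 gene lists the medians lay near 0 on both sides. They were 0.054 and -0.12 for p53 targets (-0.17), and 0.072 and -0.14 for axon guidance genes (-0.21). They were 0.094 and -0.22 for extracellular matrix and integrin genes (-0.31), and 0.082 and -0.12 for fibroblast markers (-0.20).

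Single genes differed more. FRMD6, a cytoskeletal adaptor of the Hippo pathway, had -0.56 and 0.70 (1.26). C7, a complement component, had -0.022 and 1.22 (1.24), and KRTCAP2, a subunit of oligosaccharyltransferase, had -0.20 and 0.93 (1.13). PACSIN3, a protein of endocytosis, had 0.17 and -1.94 (-2.11). RPL8, of the large ribosomal subunit, had 0.62 and -1.30 (-1.92) and was the only gene at least 1.5-fold in both pairs with opposite signs. IST1, of the ESCRT machinery, had 0.54 and -1.17 (-1.72), and CALML4, a calmodulin-like protein, had 0.89 and -0.57 (-1.46). In FRMD6 the siCon libraries also differed from each other, at 43.9 and 22.9, as they did in IST1, at 15.95 and 28.5. Each value rests on 1 library.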

How the results depend on the processing

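Among MYCN and the 307 other genes named by the rule, no called value reversed its direction under the alternatives tried. The direction of the remaining called genes was not compared across all alternatives. List medians changed sign in 5 lists after rescaling, 4 at a mean of at least 5, 6 at a mean of at least 50, 7 with no filter and 5 without genes holding the word. They did so in 7 lists with the control mimic pair alone and 3 with the let-7a pair alone. At a mean of at least 5, the median went from -0.24 to 0.010 for ion channels and from -0.041 to 0.17 for axon guidance genes. Limma calls numbered 0 higher and 0 lower with no filter (smallest adjusted p 0.193) and likewise 0 and 0 without a variance trend (0.0558). They numbered 193 and 127 at a mean of at least 5 (166 and 106 shared with the reported calls), 609 and 626 after rescaling, which kept all 310 and 196 and raised the prior degrees of freedom from 4.2 to 21.2, and 138 and 67 without genes holding the word. The other alternatives gave 275 to 344 higher and 164 to 226 lower. The shared fold rule gave 511 higher and 286 lower at the smaller fold size tried, 12 and 13 at 2-fold, 266 and 150 at a mean of at least 5, 44 and 26 at a mean of at least 50, 74 and 102 after rescaling, 406 and 271 with no filter, and 46 lower without genes holding the word. With a pseudocount of 5, 13 genes differed 2-fold between the pairs instead of 29. MYCN stayed at -0.24 but lost its call under 4 alternatives, with adjusted p-values given above (0.000555 to 0.21 by limma over all alternatives, the smallest after rescaling, at -0.29). The 30 genes with the largest shared changes kept their calls under each alternative that measured them, apart from no filter and no trend, where 0 did (adjusted p from 0.0558 to 0.193 by limma). Of 143 named called genes, 49 lost the call at a mean of at least 5 and 21 without the mimic term, and without word genes 43 of 116 did. The fit without word genes had 3.69 prior degrees of freedom, beside 4.2. The cause of these changes was not tested. Leaving out a library was not run: with the mimic term it leaves no residual degree of freedom, and only the fit without that term would allow it. The labels give no replicate numbers, and the libraries are paired by the mimic term. The fit without this pairing called 312 higher and 185 lower. Depth is unknown, which limits statements on low genes.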

Other observations

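The table also holds rows that are not genes of the cells. A kanamycin resistance row, a marker found on vectors, was at 195 and 221 in the siCon libraries and at 196 and 225 in the siMYCN libraries, and the neomycin row was listed at 0 in each. The 92 spike-in rows summed to 1.16 and 1.31 with siCon and to 0.487 and 0.604 with siMYCN.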
